A study of Mus musculus with 6 samples.

Results

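Genes of the corticosteroid system were read across astrocytes of the upper and deep layers of the mouse somatosensory cortex. They are the receptors Nr3c1 and Nr3c2, the activating enzyme Hsd11b1, the response genes Fkbp5, Tsc22d3, Sgk1, Pdk4, Cdkn1a and Zbtb16, and the angiotensin precursor Agt. Each member is the row of the deposited table whose symbol equals its name, which gave 10 of 43383 rows, and 9 of the 10 were among the 13999 rows that entered the tests, those whose RPKM averaged 1 or more across libraries. Tsc22d3 was the member that differed between layers past the threshold, with higher RPKM in the deep layers of all 3 brains, and it was also the member that differed between brains. Both receptors and Hsd11b1 were present in every library, with no difference between layers past the threshold.

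Corticosterone, the main glucocorticoid of mice, enters cells and binds the glucocorticoid receptor (Nr3c1) and, with higher affinity, the mineralocorticoid receptor (Nr3c2), which are held by chaperones in the cytoplasm and act as transcription factors in the nucleus once bound. The enzyme encoded by Hsd11b1 regenerates the active hormone from its inert keto form inside the cell. In astrocytes the activated receptors are known to raise a set of response genes that includes Tsc22d3, Fkbp5, Sgk1, Pdk4 and Zbtb16, and astrocytes are the main source of angiotensinogen in the brain.

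The cells came from Aldh1l1-eGFP mice, a transgenic line in which the promoter of Aldh1l1 drives GFP in astrocytes, so that the sorted cells are those in which this promoter was active. Upper-layer astrocytes (ULAs, layers II to IV) and deep-layer astrocytes (DLAs, layers V and VI) were dissected from the same 3 brains of 4-week-old male mice and purified by fluorescence-activated cell sorting. The genotype and age were the same in both groups, the labels name no hormone or other treatment, and hormone levels are not among the values used here. The dissection kept neither group's astrocytes from the brain surface and layer I or from the white matter below the cortex, and a strip between the upper and the deep tissue was discarded too. With 3 libraries per layer, 1 from each brain, the fit takes out the level of each brain. Its p-values, for layers and for brains, then rest on how far the layer difference varied between these 3 animals and on the variance trend over rows.

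Response genes of this kind are known for carrying a receptor binding element near or far from their start site, and the promoters of 3 members are shown to place its letters on the sequence. The reference promoters, from RefSeq on GRCm38.p6, span 250 bases before to 50 bases after each start and hold 16 entries for 8 of the 10 members. The element searched was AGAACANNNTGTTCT, a palindrome of the half-site AGAACA and its reverse complement, on both strands. The full palindrome is in 3 of 32851 promoters (0.00913%), and 1 of these is a promoter of Sgk1, where it begins 189 bases before the start. A looser form, GNACANNNTGTNC, is in 0.475% of all promoters and in the same Sgk1 promoter, where it lies within the full palindrome. The half-site alone is in 19.0% of all promoters and in 4 of the 16, which are 3 promoters of Sgk1 and 1 of Tsc22d3, and TATAAA is in 13.6% of all and in 3 of the 16, which are 2 promoters of Sgk1 and that of Agt. A match describes the letters in this window and is not evidence of binding. The sequences run 5′ to 3′ on the strand of the gene. Capitals mark the palindrome and half-sites in Sgk1, the half-site on the opposite strand, 185 bases before the start, in Tsc22d3, and TATAAA, 30 bases before the start, in Agt.
Sgk1 promoter (chr10:21993640-21993939, plus strand): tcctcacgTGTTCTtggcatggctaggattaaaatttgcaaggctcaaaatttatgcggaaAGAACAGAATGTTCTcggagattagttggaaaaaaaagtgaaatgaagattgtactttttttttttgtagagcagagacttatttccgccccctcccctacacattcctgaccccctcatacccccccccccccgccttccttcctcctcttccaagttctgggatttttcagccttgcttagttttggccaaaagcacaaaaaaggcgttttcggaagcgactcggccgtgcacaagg
Tsc22d3 promoter (chrX:140600473-140600772, minus strand): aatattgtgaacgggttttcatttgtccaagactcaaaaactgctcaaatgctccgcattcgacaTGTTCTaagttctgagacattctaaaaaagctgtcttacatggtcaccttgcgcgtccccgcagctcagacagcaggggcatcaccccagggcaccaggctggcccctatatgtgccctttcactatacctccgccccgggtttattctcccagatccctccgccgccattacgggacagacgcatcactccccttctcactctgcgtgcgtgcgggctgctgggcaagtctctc
Agt promoter (chr8:124569657-124569956, minus strand): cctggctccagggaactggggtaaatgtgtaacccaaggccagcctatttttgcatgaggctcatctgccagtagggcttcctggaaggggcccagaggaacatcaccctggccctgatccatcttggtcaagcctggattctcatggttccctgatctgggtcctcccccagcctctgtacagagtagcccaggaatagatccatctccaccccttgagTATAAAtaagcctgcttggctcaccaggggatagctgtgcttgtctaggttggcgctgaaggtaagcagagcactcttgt

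The values are RPKM, reads on a row scaled to its mRNA length and to the mapped reads of the library, at a depth of 19.7 to 29.6 M reads that was read from the steps of the values. Astrocyte markers summed to between 9582 and 11177 RPKM per library, and Snap25 of neurons was at 3.47 to 4.99 RPKM. RNA of other cells was not equal between the groups. The 10 oligodendrocyte markers summed to 90.2, 87.7 and 181 RPKM in ULAs (brains 1, 2 and 3, the order used throughout) and to 179, 206 and 285 RPKM in DLAs, and 7 of the 9 tested were higher in DLAs (limma, adjusted p under 0.05). The hemoglobin row Beta-s was at 0 to 0.98 RPKM in ULAs and at 10.1 to 44.1 RPKM in DLAs, highest in brain 3. Of 6 listed markers of pericytes and smooth muscle 2 were tested. Rgs5 was higher in ULAs, with 1.98 to 2.70 against 0.75 to 1.01 RPKM. Pdgfrb, the more abundant at a mean of 14.5 RPKM, did not differ (log2 difference 0.08, limma adjusted p = 0.790). No tested marker of neurons, microglia, endothelial cells or meningeal fibroblasts differed between layers (limma), but these were 1 of 8, 2 of 7, 1 of 7 and 1 of 5 listed. At an unadjusted p under 0.05, Slco1c1 (endothelial) and P2ry12 (microglia) were toward ULAs and Col1a1 (fibroblasts) toward DLAs, each without overlap. In those directions 5.64% and 10.8% of all tested rows were. Slco1c1 had a mean of 965 RPKM, and the other endothelial markers had means of at most 0.373 RPKM. The 4 oligodendrocyte precursor markers were below the filter, and 1 listed hemoglobin gene had no row. In sorted populations of this kind, fewer cells of a type and less RNA per cell cannot be told apart.

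The members spanned several ranges of RPKM. This scale divides by mRNA length, whereas reads appear to have been counted over whole gene spans, so the order between genes is that of the deposited values and is approximate as an order of mRNA levels. Hsd11b1 was the most abundant, at 453 to 671 RPKM over the 6 libraries, and only 0.671% of the tested rows had a higher mean. Tsc22d3 came next at 127 to 358 RPKM, below the lowest value of Hsd11b1 in every library. Agt, at 35.0 to 66.8 RPKM, lay above the ranges of Nr3c2 (23.2 to 33.3), Nr3c1 (24.9 to 30.6) and Pdk4 (21.8 to 32.5), and these last 3 overlapped one another throughout. Zbtb16 (1.99 to 4.12), Sgk1 (0.53 to 2.43), Cdkn1a (0.64 to 1.73) and Fkbp5 (0.44 to 1.18) made up the low end, where neighbouring ranges overlapped. Fkbp5 had a mean of 0.883 RPKM and was the member left below the filter. These low values rest on few reads, an equivalent of 32 to 76 reads per library for Cdkn1a and 30 to 110 for Fkbp5, against 7726 to 26360 for Tsc22d3.

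**Figure D1:**
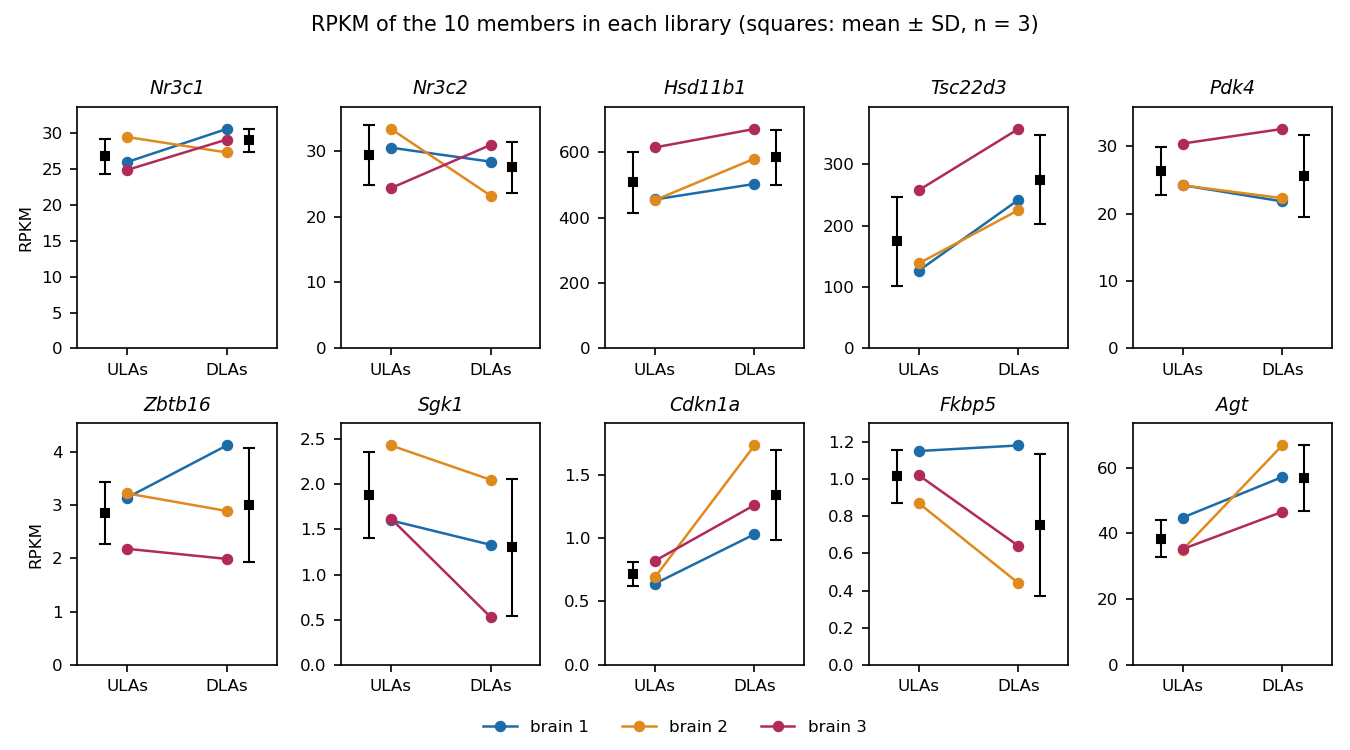
RPKM of each member in the ULA and DLA library of each brain; lines join the libraries of a brain and squares give the mean ± SD of 3 libraries, with each vertical axis starting at 0. Tsc22d3, Agt, Cdkn1a and Hsd11b1 were higher in the DLAs of all 3 brains, Sgk1 was higher in the ULAs of all 3, and the lines of the remaining members ran in both directions.

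The receptors are the entry point of the response. Nr3c1 stood at 26.0, 29.5 and 24.9 RPKM in ULAs of the brains in order and at 30.6, 27.3 and 29.1 RPKM in DLAs. The groups overlapped, the DLAs being higher in brains 1 and 3 and the ULAs in brain 2. Means were 26.8 ± 2.40 RPKM (SD, n = 3) and 29.0 ± 1.64 RPKM, and the fitted log2 difference of ULAs from DLAs was −0.11 (95% confidence interval −0.37 to 0.14, limma adjusted p = 0.661). Nr3c2 stood at 30.4, 33.3 and 24.3 RPKM in ULAs and at 28.3, 23.2 and 30.9 RPKM in DLAs. Here the ULAs were higher in brains 1 and 2 and the DLAs in brain 3, and the log2 difference was 0.09 (interval −0.24 to 0.42, adjusted p = 0.805), with the sign turned to −0.12 when brain 2 was left out.
The balance of the receptors was read as the ratio of Nr3c1 to Nr3c2 RPKM within a library. Reads appear to have been counted over whole gene spans, 76701 bases for Nr3c1 and 341132 for Nr3c2. The level of the ratio is therefore approximate as a balance of mRNAs. The ratio was 0.854, 0.886 and 1.02 in ULAs and 1.08, 1.18 and 0.945 in DLAs. It was higher in DLAs in brains 1 and 2 and lower in brain 3. Its means of 0.922 ± 0.0904 and 1.07 ± 0.118 (SD, n = 3) did not differ past the threshold (exact permutation test, 2-sided, p = 0.2), but 3 against 3 libraries cannot give a p under 0.1, and keeping the pairs gave an exact permutation p = 0.5 where the smallest possible is 0.25. Neither receptor differed between brains (limma F-test of the brain terms, adjusted p = 0.943 for Nr3c1 and 0.946 for Nr3c2).

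Hsd11b1, which regenerates active hormone inside the cell, had 455, 453 and 614 RPKM in ULAs and 503, 580.0 and 671 RPKM in DLAs. The DLA value was higher in each brain, by 1.10, 1.28 and 1.09 times, yet the groups overlapped because the ULAs of brain 3 exceeded the DLAs of brains 1 and 2. The log2 difference was −0.21 (SE 0.09, interval −0.42 to 0.00, limma adjusted p = 0.310). Its row, on chromosome 1 from 195047835 to 195090239 in the mm9 coordinates of the table, overlaps opposite-strand rows without a gene name, 1 of which held a read number of 99.9% to 100.1% of that of Hsd11b1. Among nested row pairs without shared exons whose inner row held over 0.2 reads per M mapped reads in every library, the outer row held at least 0.98 times as many reads as the inner one in 1623 of 1624, so reads appear to have been counted over whole gene spans on both strands, and reads of Hsd11b1 and of those rows cannot be told apart.
Of 9 genes for steroid synthesis, inactivation and export, 2 were above the filter. Cyp7b1, which hydroxylates oxysterols and neurosteroids, had 129, 139 and 124 RPKM in ULAs and 148, 142 and 163 RPKM in DLAs, without overlap but with a log2 difference of −0.20 that did not pass (adjusted p = 0.353, limma). Srd5a1, the steroid reductase, was at 2.97 to 3.81 and 3.74 to 5.30 RPKM (log2 difference −0.24, adjusted p = 0.427). Hsd11b2, the enzyme that inactivates corticosterone, was among the 7 below the filter, of which Star had the highest mean at 0.723 RPKM.

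Tsc22d3 encodes GILZ, a leucine zipper protein induced by glucocorticoids that is known to restrain inflammatory transcription. Its RPKM was 127, 139 and 258 in ULAs and 242, 225 and 358 in DLAs, by brain. In each brain the DLAs had more, by 1.91, 1.63 and 1.39 times (mean ratio 1.64 ± 0.262, SD, n = 3). The groups nevertheless overlapped, because the ULAs of brain 3 lay above the DLAs of brains 1 and 2. The means were 174 ± 72.6 RPKM in ULAs and 275 ± 72.1 RPKM in DLAs, and with the brain in the model the log2 difference was −0.70 (SE 0.11, interval −0.94 to −0.46, limma adjusted p = 0.0114). Without the brain in the model the adjusted p was 0.448. It was also above 0.05 with no filter on low values (0.339), without the variance trend (0.0581) and without brain 1 (0.0956), within a range of 5.10e-06 to 0.448 over 11 alternatives, all of which kept the direction.
The gene lies on chromosome X from 137074068 to 137135061 (mm9), with 5 exons and no overlapping row found. Oligodendrocyte RNA moved with it. Mog, a gene of the outer myelin surface, had 1.43, 1.48 and 8.37 RPKM in ULAs and 6.76, 9.14 and 12.95 RPKM in DLAs, so both genes were lowest in the ULAs of brains 1 and 2 and highest in the DLAs of brain 3. Mbp, another myelin gene, was at 10.5 to 15.9 RPKM in ULAs and at 35.2 to 38.0 RPKM in DLAs, and did not differ between brains (adjusted p = 0.671, limma). Tsc22d3 exceeded the summed RPKM of all 10 oligodendrocyte markers in all 6 libraries, but a sum over other genes does not give the Tsc22d3 RNA of those cells. The part of oligodendrocyte RNA in the difference of Tsc22d3 was not tested.

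**Figure D2:**
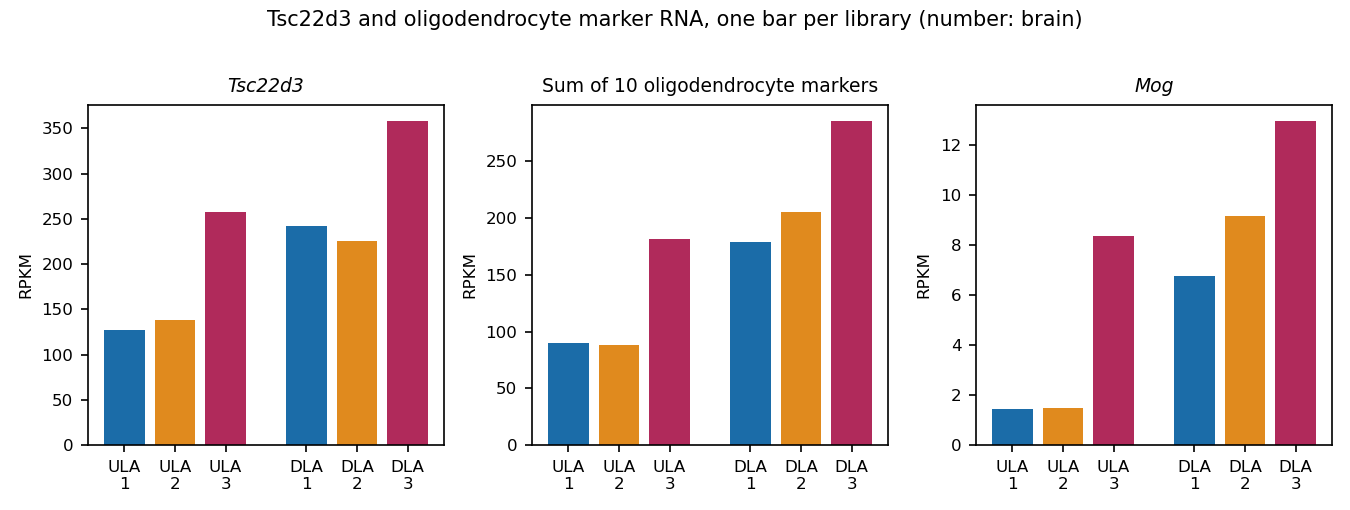
RPKM of Tsc22d3, the summed RPKM of the 10 oligodendrocyte markers and the RPKM of Mog, with 1 bar per library grouped by layer and coloured by brain, on axes that start at 0. In each panel the ULAs of brains 1 and 2 were the lowest libraries and the DLAs of brain 3 the highest, and the ULAs of brain 3 lay above the DLAs of brain 1.

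The other response genes among the members did not differ between layers past the threshold. Pdk4, a kinase that inhibits the pyruvate dehydrogenase complex and so spares glucose, was at 24.2, 24.2 and 30.4 RPKM in ULAs and at 21.8, 22.3 and 32.5 RPKM in DLAs. Brain 3 had the highest value in both layers, while the layers differed by less than that (log2 difference 0.05, interval −0.19 to 0.30, limma adjusted p = 0.849). Zbtb16, a zinc finger transcription factor, was at 3.14, 3.22 and 2.18 RPKM in ULAs and at 4.12, 2.89 and 1.99 RPKM in DLAs, with brain 3 lowest in both layers (log2 difference −0.03, interval −0.37 to 0.31, adjusted p = 0.938, and 0.10 without brain 1).
Sgk1, the serum- and glucocorticoid-regulated kinase whose promoter holds the palindrome, was at 1.60, 2.43 and 1.62 RPKM in ULAs and at 1.33, 2.05 and 0.53 RPKM in DLAs. The ULA value was higher in each brain, by 1.203, 1.19 and 3.06 times, but the groups overlapped. The log2 difference of 0.37 did not pass (SE 0.18, interval −0.03 to 0.76, adjusted p = 0.338, limma). This difference ran from 0.16 without brain 3 to 0.64 with a pseudocount of 0.1, and passed in 0 of the 10 alternatives that held the gene. The lowest value corresponds to 65 reads over a row that joins 6 RefSeq transcripts.
Cdkn1a encodes a cyclin-dependent kinase inhibitor that is a target of p53 as well as of glucocorticoids. It was at 0.64, 0.69 and 0.82 RPKM in ULAs and at 1.03, 1.73 and 1.26 RPKM in DLAs, so that all DLA values lay above all ULA values. The log2 difference of −0.44 (SE 0.17, interval −0.81 to −0.06) did not pass (adjusted p = 0.241, limma), and on this scale the pseudocount of 1 understates the ratio of 1.61, 2.51 and 1.54 times in brains 1, 2 and 3. An opposite-strand row that shares exon sequence with Cdkn1a held the equivalent of 2.42% to 27.7% of its reads. None of the 10 tested of 12 other p53 targets differed between layers (limma). At an unadjusted p under 0.05 there was 1, toward DLAs, where 10.8% of all tested rows were. Phlda3 had the largest log2 difference, −0.44 (adjusted p = 0.129), and Bax was the most abundant at a mean of 84.9 RPKM.
Fkbp5, a co-chaperone that lowers the affinity of the receptor for its hormone, was listed at 1.15, 0.87 and 1.02 RPKM in ULAs and at 1.18, 0.44 and 0.64 RPKM in DLAs. Brain 1 was alike in both layers and the ULA value was higher in brains 2 and 3. In the fit with no filter its log2 difference was 0.22 (adjusted p = 0.651, limma), and a row nested in it held up to 24.6% of its reads.

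Agt encodes angiotensinogen, the precursor cleaved by renin to start the angiotensin cascade. It had 44.8, 35.0 and 35.3 RPKM in ULAs and 57.2, 66.8 and 46.6 RPKM in DLAs. All DLA values were above all ULA values, and the ratio of DLAs to ULAs was 1.28, 1.91 and 1.32 in the brains in turn (mean 1.501 ± 0.352, SD, n = 3). The interval of its log2 difference was −0.83 to −0.27 (SE 0.13), just outside the threshold (limma adjusted p = 0.0695). It passed in 3 of 11 alternatives, with an adjusted p of 0.00142 without brain 3, 0.0402 without brain 1 and 0.0343 under a filter at a mean of 5 RPKM. The gene lies on chromosome 8 from 127080487 to 127093607 (mm9), and no overlapping row was found.
The genes that act on angiotensinogen were few. Of 15 renin-angiotensin genes 4 were above the filter, none differed between layers, with 0 at an unadjusted p under 0.05 (limma), and 4 were listed at 0 in all libraries. Ctsd, a protease of lysosomes, had the highest mean at 923 RPKM, Atp6ap2, the prorenin receptor, was at 176 to 189 RPKM (log2 difference 0.01, adjusted p = 0.982), and Lnpep had the largest difference, 0.17 (adjusted p = 0.643). The angiotensin receptor genes Agtr1a, Agtr1b and Agtr2 and the converting enzyme gene Ace were below the filter, where the highest mean was that of Mas1 at 0.22 RPKM.

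Between layers, then, 1 of the 9 tested members was higher in DLAs, a direction in which 0.914% of all tested rows passed, and 0 were higher in ULAs, where 0.714% of rows passed. At an unadjusted p under 0.05 these counts were 3 and 0 (limma), beside 10.8% and 5.64% of all tested rows in those directions. There were 2 members with all DLA values above all ULA values, as did 9.27% of all tested rows, and 0 had the reverse, as did 6.59%. The median log2 difference of the 9 was −0.11, beside −0.03 over all tested rows, of which 55.0% were below 0. Over the alternatives the median of the members ran from −0.16 under a filter at a mean of 5 RPKM to −0.04 with quantile normalization. It was −0.06 without brain 1.
The pathway beyond the members gave no call between layers. Of 29 other corticosteroid response genes 24 were tested, 0 passed in either direction, and 7 and 0 were at an unadjusted p under 0.05 toward DLAs and ULAs (limma), the directions in which 10.8% and 5.64% of all rows were. Their log2 differences ran from −0.49 for Klf9 to 0.21 for Foxo3 with a median of −0.14, and 20 of 24 were below 0. Klf9, a Krüppel-like factor induced by glucocorticoids, was at 18.9 to 29.9 RPKM in ULAs and 19.5 to 52.6 RPKM in DLAs (adjusted p = 0.140). The count was sensitive to the animals: 6 of these genes were higher in DLAs when brain 3 was left out and 2 when brain 2 was left out. These fits have 1 brain fewer. The number of all tested rows higher in DLAs rose as well, from 128 to 695 without brain 3 and to 181 without brain 2.

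**Figure D3:**
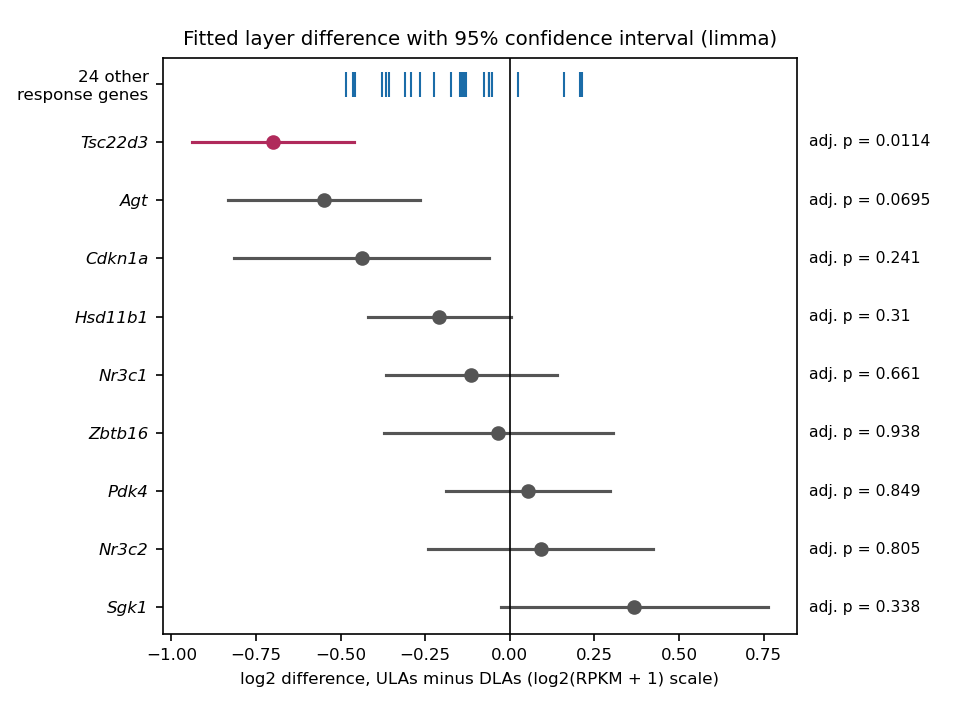
Fitted log2 difference of ULAs from DLAs for the 9 tested members, with points for the estimate and bars for its 95% confidence interval, and ticks for the 24 other tested response genes. Only the interval of Tsc22d3 belongs to a difference past the threshold, while those of Agt and Cdkn1a also lie below 0 and those of the receptors span 0.

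The same fit compared the brains. The 2 libraries of a brain share the animal, the dissection and the sort, so an animal and its handling cannot be told apart. Tsc22d3 differed between brains (limma F-test, adjusted p = 0.0143), with brain 3 above the mean of brains 1 and 2 by 0.96 on the log2 scale in ULAs and by 0.61 in DLAs. It was 1 of 9 tested members to do so, beside 2.85% of all rows, and 1.19% of rows both differed and were highest in brain 3. The difference rests on brain 3, and without that brain the adjusted p was 0.984. It also did not pass with no filter (0.386) or without the variance trend (0.0645).
Hsd11b1 and Pdk4 were likewise highest in brain 3 in both layers, by 0.37 and 0.43 on the log2 scale over the layers, but did not pass (limma F-test, adjusted p = 0.157 and 0.170), although Hsd11b1 passed when brain 2 was left out (0.0393). Zbtb16 and Sgk1 had their lowest mean in brain 3, with log2 differences from the other brains of −0.49 for each and adjusted p = 0.258 and 0.252. The members therefore did not share 1 order of the brains. Oligodendrocyte markers moved with the brain as well. Of the 9 tested 5 differed between brains, beside 2.85% of all tested rows. All 9 were highest in brain 3, as were 37.9% of all tested rows. The part of oligodendrocyte RNA in the brain differences of the members was not tested.
Among the 24 other tested response genes, 7 (29.2%) differed between brains, beside 2.85% of all tested rows, a comparison added after the values had been seen. Mt1 and Mt2, the metallothioneins that bind zinc and copper, and Sult1a1, a sulfotransferase, were highest in brain 3. Mt1 was at 2203, 2423 and 3801 RPKM in ULAs and at 2795, 3657 and 4348 RPKM in DLAs (limma F-test, adjusted p = 0.0369), and Mt2 followed at 343, 373 and 612 and at 415, 561 and 708 RPKM (adjusted p = 0.0189). Brain 3 was the highest in both layers for both genes. Sult1a1 was at 28.4, 22.1 and 37.8 RPKM in ULAs and 29.6, 26.7 and 48.2 RPKM in DLAs (adjusted p = 0.0255).
The other 4 ran differently. Angptl4, a secreted inhibitor of lipoprotein lipase, was at 49.6, 41.0 and 27.4 RPKM in ULAs and at 59.4, 59.6 and 27.7 RPKM in DLAs, with brain 3 lowest in both layers (adjusted p = 0.0120, limma). Plekhf1 was also lowest in brain 3, at 2.46 and 3.38 RPKM against 4.06 to 8.67 RPKM in the other brains (adjusted p = 0.0147). Klf9 was lowest in brain 2 in both layers (adjusted p = 0.0321), and Dusp1, a phosphatase that inactivates MAP kinases, was highest in brain 2, at 82.0 and 91.99 RPKM against 40.6 to 64.0 RPKM (adjusted p = 0.0456). Over 9 alternatives each of the 7 failed in at least 2, and the count was 0 with no filter, 2 without the variance trend and 3 without brain 2 or without brain 3.

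**Figure D4:**
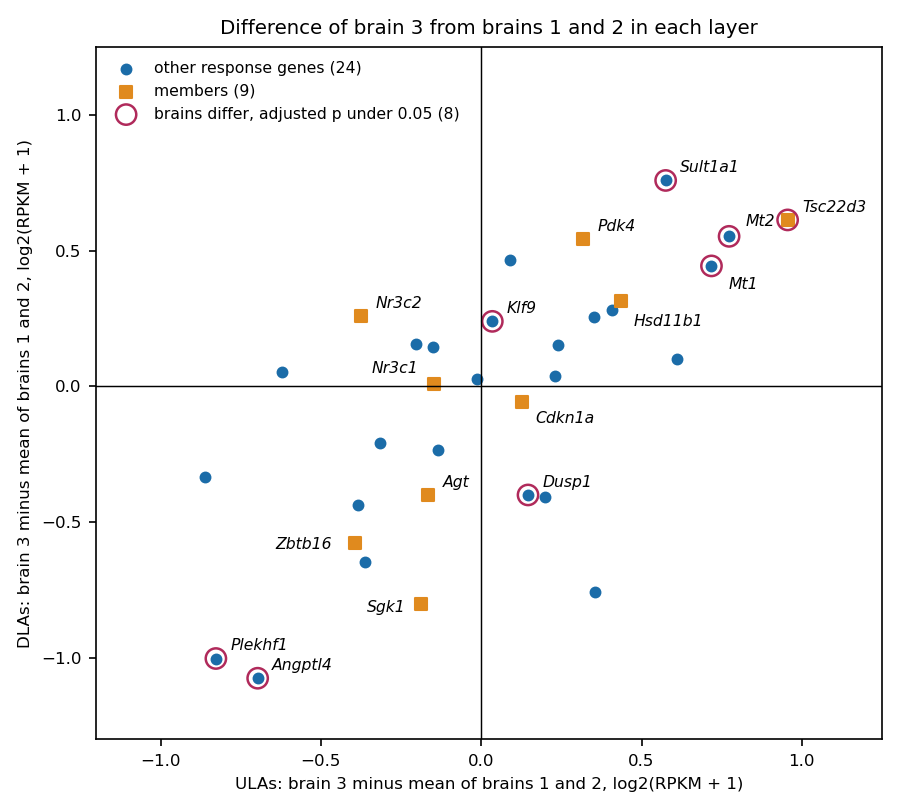
Difference of brain 3 from the mean of brains 1 and 2 on the log2(RPKM + 1) scale, in ULAs on the horizontal axis and in DLAs on the vertical axis, for 9 members (squares) and 24 other response genes (circles); rings mark genes that differed between brains. Tsc22d3, Mt1, Mt2 and Sult1a1 lie to the upper right and Angptl4 and Plekhf1 to the lower left. Nr3c1 lies near the centre, and Nr3c2 lies to the upper left (−0.38 in ULAs and 0.26 in DLAs).

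The genes that serve the receptors gave no call between layers. None of 9 receptor chaperones differed between layers, with 2 at an unadjusted p under 0.05, both toward DLAs, where 10.8% of all rows were, and their log2 differences ran from −0.40 for Bag1 (adjusted p = 0.134, limma) to −0.01 for Hsp90ab1, the most abundant at a mean of 112 RPKM. All 9 were below 0, with a median of −0.11, beside 55.0% of all tested rows and a median of −0.03. Bag1 differed between brains (adjusted p = 0.0289), at 16.4 and 25.0 RPKM in brain 2 against 27.9 to 38.8 RPKM in the others. None of 11 receptor coregulators differed between layers, with 0 at an unadjusted p under 0.05, from −0.17 for Ncor1, a corepressor, to 0.21 for Crebbp, a coactivator, and Hdac3 was the most abundant at a mean of 87.5 RPKM.
Paralogues of the members gave no call either. Tsc22d4, a relative of Tsc22d3, was at 153, 140 and 166 RPKM in ULAs and at 172, 207 and 175 RPKM in DLAs, without overlap and in the direction of Tsc22d3 (log2 difference −0.27, limma adjusted p = 0.273). Unlike Tsc22d3 it had an adjusted p of 0.938 between brains, a contrast of the genes that was not tested. Tsc22d1, another relative, was higher in brain 3 by 0.76 on the log2 scale but did not pass (limma F-test, adjusted p = 0.126). On that scale all 8 tested paralogues were highest in brain 3, as were 37.9% of all tested rows, and 0 passed between brains. Pdk3, a relative of Pdk4, had a log2 difference of 0.40 (adjusted p = 0.153). Of the 12 paralogues 8 were tested, with 1 at an unadjusted p under 0.05 in each direction (limma). Toward ULAs and DLAs 5.64% and 10.8% of all tested rows were. Of 11 immediate early genes, which follow cell stimulation and tissue handling, 5 were tested and none differed between layers, with 0 at an unadjusted p under 0.05, from −0.15 for Ier2 to 0.13 for Nr4a1. Jun, the most abundant of them, differed between brains (adjusted p = 0.0354, limma), at 17.6 and 19.8 RPKM in brain 2 against 8.43 to 12.5 RPKM in the others, the brain in which Dusp1 was highest.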

How the data were processed

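RNA of ULAs and DLAs from 3 brains was amplified with SMART-Seq v4, which keeps no strand, and sequenced from one end for 36 bases. The authors deposited RPKM values in 1 table of 43383 rows. The submitters' processing notes name bcl2fastq 1.8.4, CASAVA 1.8.2 and mm9, and the program that aligned and counted the reads is not given in the sources used here. Each RPKM is the number of reads per M mapped reads, cut to 2 decimals, divided by the mRNA length and cut again. The steps of rows up to 500 bases gave the depth, 24.5, 25.6 and 26.7 M reads for the ULAs and 26.6, 19.7 and 29.6 M reads for the DLAs of brains 1, 2 and 3, and read numbers quoted for a gene come from these depths and cover counting error only.

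The 13999 rows whose RPKM averaged 1 or more were fitted as log2(RPKM + 1) with limma 3.58.1 in R 4.3.3 (lmFit, eBayes with trend), on the terms brain and layer, with 2-sided p-values, an F-test for the brain terms and Benjamini-Hochberg adjustment over all rows at 0.05. Fold changes on this scale understate those of low rows. The replicate number in the labels was taken as the brain, since ULA and DLA libraries of one number deviated together (r across rows 0.42, 0.33 and 0.34, against -0.20 to -0.16 between numbers). The receptor ratio was tested by exact permutation in Python 3.11.15 with numpy 2.4.6 and pandas 2.3.3, and figures were drawn with matplotlib 3.10.9.

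All 10 members are named, and of each other list the most abundant gene and the ends of the range. Angiotensin receptors and enzymes, Hsd11b2, further brain-dependent genes and some markers were named after their values were seen. Some listed genes are not reported by name here. Members and lists were chosen with earlier results of these data known. Marker lists covered astrocytes, oligodendrocytes and their precursors, neurons, microglia, endothelial cells, pericytes, meningeal fibroblasts and red blood cells. The 11 alternatives were no replicate block, no variance trend, 2 other filters (none, and a mean of 5 RPKM), a pseudocount of 0.1, quantile normalization, centring on the median, a correction for mRNA length (lowess, span 0.5) and each brain left out. Promoters came from RefSeq tables on GRCm38.p6, which hold no entry for Nr3c1 and Zbtb16, and no coordinates were moved between builds.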

Additional observations from a re-analysis of the deposited data

How the results depend on the processing

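The call of Tsc22d3 depended on the pairing of libraries by brain. With no replicate block 0 members were higher in DLAs (log2 difference of Tsc22d3 -0.70, adjusted p = 0.448), and so it was with no filter and without the variance trend, while 2 members, Tsc22d3 and Agt, passed under a filter at a mean of 5 RPKM. Leaving out 1 brain at a time gave 1 to 2 members higher in DLAs (Agt in place of Tsc22d3 without replicate 1) and 0 to 6 of the other response genes. Members that differed between brains numbered 0 with no filter and without the variance trend, and 0 to 2 with a brain left out. Of the other response genes, 0 differed between brains with no filter, 2 without the variance trend and 3 to 5 with a brain left out, a result added after the data were seen. In the remaining alternatives these counts were within 1.5 times those given above. The sign turned for 2 members as brains were left out, Nr3c2 ranging from -0.12 (without replicate 2) to 0.30 and Zbtb16 from -0.11 to 0.10 (without replicate 1), neither past the threshold. Over all rows, the numbers higher in ULAs and DLAs were 100 and 128, 23 and 18 with no replicate block, 0 and 0 with no filter (2799 rows at an unadjusted p under 0.05), 65 and 79 without the variance trend, 74 and 72 with the length correction, 138 and 103 with quantile normalization, and 431 and 695 without brain 3. The cause of these shifts was not tested. The rows of Cdkn1a, Fkbp5 and Sgk1 rest on the fewest reads of the members.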
